A study of Homo sapiens with 32 samples.

Results

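The genes described here are 45 genes of DNA replication and of entry into S phase, listed by their GENCODE symbols. They were chosen from textbook roles, with earlier results of these data known. Of these, 44 had a row among the 17788 genes of the count table, and all 44 passed the filter on low counts, which left 14865 genes. The remaining gene, UHRF1, was not analysed here. The 44 genes were the 6 subunits of the MCM2-7 helicase, 6 genes for activating that helicase, 4 for licensing origins, 5 for the sliding clamp and its loader, 7 for polymerases and primase, 3 for nucleotide supply, 2 for joining Okazaki fragments, 3 for chromatin assembly and histone mRNA, 4 for fork protection and protein turnover at the fork, and 4 regulators of the G1/S transition.

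RNA-seq was performed on MCF10A, an immortalized human mammary epithelial cell line, with the question of how much of the response to TGFβ1 depends on the AP-1 subunit JUNB. The 8 groups were JUNB WT and JUNB mut cells, each with solvent (0.1% BSA in PBS) or with TGFβ1 at 5 ng/ml for 6, 24 or 72 h. Each group had 4 libraries, from 2 single-cell-derived clones (WT clones 2 and 27, mut clones 1 and 65) and 2 replications of each, so 32 libraries in all. The GEO labels call the mut clones JUNB knock-out, and in the study's account they carry an extended CRISPR/Cas9 deletion in JUNB and still make small amounts of a shortened polypeptide. The medium of all groups held horse serum, EGF, hydrocortisone, cholera toxin and insulin. The labels give the solvent libraries time 0, while in the study's account solvent was applied for 72 h and all plates were collected together 3 days after seeding, so the groups were of equal age in culture and differed in the time with TGFβ1. The study's account also calls the 2 replications independent biological replicates. They share a clone, so p-values over 4 libraries rest on 2 clones per genotype. The 4 libraries of 1 clone and 1 replication are called a series below and are written as clone and replication, so that 27-2 is the second replication of clone 27.

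DNA replication starts in G1 phase, when the origin recognition complex, CDC6 and CDT1 load the MCM2-7 helicase onto origins. At the entry into S phase, cyclin E with its kinase drives the firing of origins, CDC45 and the GINS complex join the helicase to form the active form, and the polymerases with the clamp PCNA copy both strands. Most of these genes are transcribed in late G1 and S phase under E2F factors, which the retinoblastoma protein holds in check until cyclin-dependent kinases release them. In epithelial cells, TGFβ is known as a cytostatic signal that arrests cells in G1. In a population of cells, fewer cells in S phase and less RNA per cell cannot be told apart by these measurements.

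Library totals ran from 39702412 to 54651906 counts, so all levels are given as CPM, the counts of a gene per 1e6 counts of its library. The epithelial markers fixed for this cell line were present in all 32 libraries, with KRT5 at a median of 5834 CPM and TP63 at 104 CPM. PTPRC, CD3E, VWF and ALB, markers of blood, vessel and liver, had at most 0.14 CPM, while CD68 and CD14 ranged from 2.29 to 28.1 CPM. JUNB itself ranged from 89.7 to 117 CPM in WT solvent and from 69.2 to 172 CPM in mut solvent, so its counts did not check the genotype labels. The series 27-2 and 1-2 stood apart in solvent. FN1, the fibronectin gene and a target of TGFβ, was at 1548 CPM in WT solvent 27-2 against 329 to 580 CPM in the other WT solvent libraries, and at 1413 CPM in mut solvent 1-2 against 249 to 373 CPM. For the replication genes, the mean log2 CPM of WT solvent 27-2 was 5.59, within the range of its group, and that of mut solvent 1-2 was 5.27, next to 5.26 in 65-2. Counts without either series are given where they change a result.

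Because E2F factors act at the promoters of these genes, the promoter sequences are given first. Of the 44 genes, 38 had an entry in the RefSeq promoter table (GRCh38.p14, 250 bases before to 50 after a start site). A match to TTTCCCGC, TTTGGCGC, TTTCGCGC or TTTGCCGC on either strand was found for 22 of the 38, or 57.9%. Among all genes of the count table with an entry, 5.83% had such a match, as did 9.68% of a list of G2/M genes. For CCAAT on either strand, the shares were 57.9% of the replication genes, 42.3% of all genes and 83.9% of the G2/M genes. The following sequences are the 150 bases just before the start site, 5′ to 3′ on the gene's strand, with E2F matches in capitals. The first 5 are genes described below with a match in this stretch, and MCM10 and SLBP, picked after their values were seen, had none in their whole entry. PCNA has 2 entries, and the other one had no E2F match.
CDT1 (chr16:88803639-88803788, plus strand): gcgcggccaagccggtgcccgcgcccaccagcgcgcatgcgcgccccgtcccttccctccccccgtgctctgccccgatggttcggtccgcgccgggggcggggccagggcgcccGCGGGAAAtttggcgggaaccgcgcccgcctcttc
DTL (chr1:212035598-212035747, plus strand): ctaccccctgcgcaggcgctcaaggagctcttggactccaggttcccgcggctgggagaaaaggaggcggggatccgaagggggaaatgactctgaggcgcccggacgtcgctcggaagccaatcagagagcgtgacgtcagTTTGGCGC
E2F2 (chr1:23531234-23531383, minus strand): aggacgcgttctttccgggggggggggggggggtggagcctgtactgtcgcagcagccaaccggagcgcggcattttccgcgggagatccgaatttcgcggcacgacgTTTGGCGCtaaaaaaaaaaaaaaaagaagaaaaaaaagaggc
PCNA (chr20:5126623-5126772, minus strand): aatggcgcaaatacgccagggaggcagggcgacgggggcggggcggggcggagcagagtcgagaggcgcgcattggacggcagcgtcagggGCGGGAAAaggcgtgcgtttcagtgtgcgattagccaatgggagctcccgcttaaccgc
POLE (chr12:132687343-132687492, minus strand): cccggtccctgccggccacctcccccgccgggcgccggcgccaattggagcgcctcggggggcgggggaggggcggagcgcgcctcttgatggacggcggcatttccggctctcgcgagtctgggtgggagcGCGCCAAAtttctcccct
MCM10 (chr10:13161408-13161557, plus strand): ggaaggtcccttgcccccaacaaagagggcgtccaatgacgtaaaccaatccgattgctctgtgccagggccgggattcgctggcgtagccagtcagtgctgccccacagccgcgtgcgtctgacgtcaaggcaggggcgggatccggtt
SLBP (chr4:1712320-1712469, minus strand): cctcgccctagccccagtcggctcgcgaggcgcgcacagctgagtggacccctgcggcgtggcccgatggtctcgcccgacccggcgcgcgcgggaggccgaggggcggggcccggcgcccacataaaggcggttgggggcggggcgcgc
E2F2, CDT1 and MCM10 are among the genes with the largest decreases described below, and SLBP had the smallest. In the 22 genes with a match, the median log2 change in WT cells at 24 h was -1.22, and in the 16 with an entry and no match it was -1.14. The changes ran from -2.52 to -0.87 with a match and from -1.67 to -0.66 without, so the 2 sets overlapped, and a missing match says nothing about binding.

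In JUNB WT cells, TGFβ1 was followed by lower levels of all 44 genes at 24 h and by a partial return at 72 h, while in JUNB mut cells the decrease at 24 h was smaller for all 44. Averaged over the 44 genes, the level in WT solvent was 5.52 ± 0.09 log2 CPM (SD, n = 4 libraries). After 6 h it was 5.11 ± 0.19, after 24 h 4.31 ± 0.22 and after 72 h 5.03 ± 0.26. The corresponding means in mut cells were 5.37 ± 0.13 in solvent, 5.09 ± 0.15 after 6 h, 4.94 ± 0.13 after 24 h and 5.23 ± 0.27 after 72 h. By library, the WT solvent means were 5.44, 5.45, 5.60 and 5.59 in the series 2-1, 2-2, 27-1 and 27-2, and the WT 24 h means were 4.51, 4.04, 4.21 and 4.48 in the same order. In mut cells, the solvent means were 5.45, 5.27, 5.51 and 5.26 in the series 1-1, 1-2, 65-1 and 65-2, and the 24 h means were 4.89, 4.95, 5.12 and 4.83. The 2 genotypes overlapped in solvent and did not overlap at 24 h, when the lowest mut library was above the highest WT library. At 24 h the average changes of the clones were close, at -1.17 and -1.25 in WT clones 2 and 27. In mut clones 1 and 65 they were -0.44 and -0.42. The series of a clone spread more, with -0.93 in 2-1 and -1.41 in 2-2, and -0.56 in 1-1 and -0.32 in 1-2. At 6 h the clone averages, in the same order, were -0.50 and -0.31 in WT and -0.20 and -0.37 in mut cells. These means are a description of chosen genes and carry no test.

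**Figure D1:**
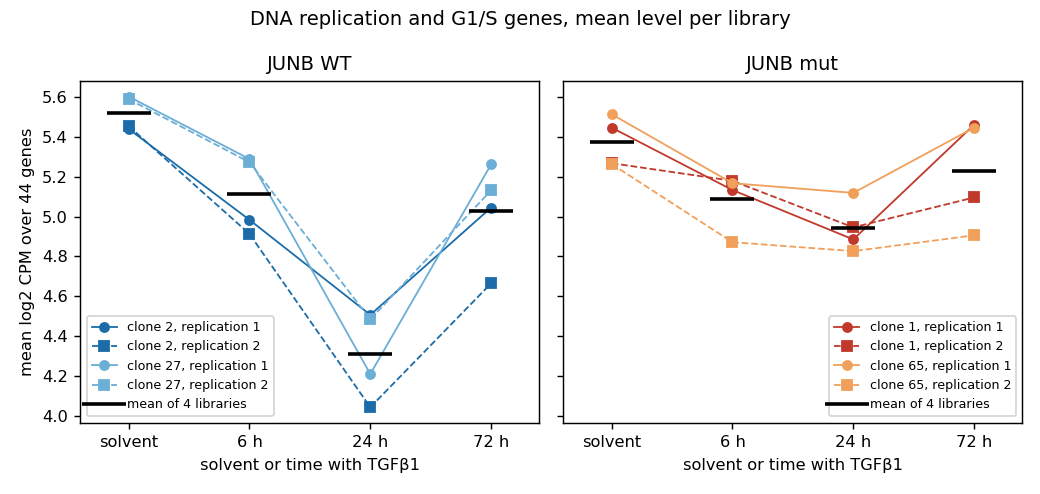
Mean log2 CPM over the 44 genes in each of the 32 libraries, by genotype and by solvent or time with TGFβ1; lines join the libraries of a series and black bars are means of 4 libraries. The 4 WT libraries at 24 h lie between 4.04 and 4.51 and the 4 mut libraries between 4.83 and 5.12.

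Tested gene by gene with limma-voom and adjusted over all 14865 genes, 23 of the 44 genes fell in WT cells at 6 h, beside 11.9% of all genes. At 24 h all 44 fell, beside 38.0% of all genes, and in each of the 44 every WT 24 h library was below every WT solvent library. The share of all genes separated in this way, here and in later statements on overlap, was not counted. At 72 h 36 of the 44 were below solvent, beside 38.4% of all genes, and from 24 h to 72 h 41 rose, beside 4.68%. No member rose against solvent at any time. The median log2 changes were -0.36 at 6 h, -1.18 at 24 h and -0.48 at 72 h, while the medians of all genes were -0.08, -0.18 and -0.19. With TMM factors, which brought the median of all genes at 24 h to 0.0014, all 44 still fell at 24 h, with a median of -1.005, and 12 fell at 6 h and 23 at 72 h. Beside these, 6.18%, 23.2% and 23.3% of all genes fell at 6, 24 and 72 h with TMM factors. The 6 h count was also 12 by DESeq2, beside 6.3%, 15 without the series 27-2, beside 10.2%, 12 without the library WT solvent 27-1, 11 without WT 6 h 2-1 and 7 without WT 6 h 2-2. The 3 comparisons with solvent share the WT solvent libraries. For fits without a single library, here and below, shares of all genes are not given. A lower count there cannot be told from a general loss of calls.

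In mut cells, 7 of the 44 genes fell at 6 h, beside 4.94% of all genes, 26 at 24 h, beside 17.1%, and 3 at 72 h, beside 16.3%. The 3 at 72 h were E2F2, POLA2 and RPA2. From 24 h to 72 h 1 gene, ORC6, rose, beside 0.693% of all genes. The medians were -0.29, -0.42 and -0.12 at 6, 24 and 72 h, while those of all genes were -0.06, -0.10 and -0.09. With the series as a block, which compares each library with the solvent library of its own series, the counts were 25, 41 and 7, and 14 from 24 h to 72 h. Beside these, 11.6%, 25.1%, 22.9% and 4.66% of all genes passed with the block. The 15 genes gained at 24 h included MCM4, MCM10, ORC1, RRM1, FEN1, GINS3 and SLBP, and CCNE1, CCNE2 and CLSPN remained the genes that missed the threshold. With TMM factors 1 gene fell at 6 h, beside 2.06% of all genes, and 15 at 24 h, beside 8.04%, and at 72 h 16 of the 44 changes were positive in place of 3, none of them called. The 6 h count was 0 without the library mut solvent 1-1, mut 6 h 65-1 or mut 6 h 65-2, 2 without mut solvent 1-2, 3 without mut solvent 65-1, mut solvent 65-2 or mut 6 h 1-1, and 12 without mut 6 h 1-2. The 72 h count was 1 without mut 72 h 65-2. ORC6's rise was lost when any of mut 24 h 1-1, 1-2 and 65-2 or mut 72 h 1-1 and 65-1 was left out, and 5 genes rose without mut 72 h 65-2.

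The change at 24 h differed between the genotypes, by the interaction term of the same fit, in 39 of the 44 genes, each with the smaller decrease in mut cells, beside 7.72% of all genes with an interaction in this direction. The median interaction was 0.78 on the log2 scale, beside 0.08 for all genes. Taken gene by gene, the mut change was a median of 34.7% of the WT change. The 5 genes that missed the threshold were RFC4 (adjusted p = 0.0517), E2F2 (0.0556), CLSPN (0.0631), E2F1 (0.114) and GINS4 (0.136). The count was 24 with TMM factors, beside 2.98% of all genes, 44 with the series as a block, beside 14.1%, 32 without the series 27-2, beside 6.57%, 18 without the series 1-2, beside 3.87%, 22 without the library WT 24 h 2-2 and 24 without mut 24 h 65-1. Among the 18 genes with a called interaction that are described one by one below, the call was lost with TMM factors for PCNA, POLE, FEN1, DTL, CCNE1, POLD3, GINS3 and RPA2, without the series 27-2 for CCNE1, POLD3, GINS3 and RPA2, by DESeq2 for DTL, and without the series 1-2 for CDC45, PCNA, POLE, RRM1, FEN1, DTL, POLE2, MCM10, POLD3, GINS3 and RPA2. At 6 h none of the 44 genes showed an interaction, by limma-voom, by edgeR's quasi-likelihood test or by DESeq2. By limma-voom 0.00673% of all genes had a positive interaction at 6 h, and 10 genes a negative one. An unadjusted p under 0.05 was found there for 1 of the 44, beside 5.14% of all genes. At 72 h CDT1 alone showed an interaction, beside 9.4% of all genes with a positive one. At an unadjusted p under 0.05 there were 19 of the 44 at 72 h, beside 26.6% of all genes. With the series as a block 22 passed at 72 h, beside 17.1% of all genes with a positive interaction. Leaving out 1 library at a time gave 0 to 9 genes at 72 h, with 2 without WT solvent 27-2, 4 without WT 72 h 27-1, 5 without mut 72 h 1-2, 9 without mut 72 h 65-2 and 0 or 1 without each of the others.

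Levels were also compared between the genotypes at each time. In solvent no gene differed, beside 6.38% of all genes higher and 6.32% lower in mut cells. The difference was negative in 40 of the 44, with a median of -0.14, and in 6 genes all mut libraries lay below all WT libraries. How many of all genes lay apart in this way was not counted. An unadjusted p under 0.05 was found for 6 of the 44, beside 26.2% of all genes. At 6 h again none differed, beside 11.3% higher in mut cells, with 2 at an unadjusted p under 0.05, beside 33.4%. Both counts were also 0 by edgeR's quasi-likelihood test and by DESeq2. At 24 h 43 of the 44 were higher in mut cells, beside 24.7% of all genes, with GINS4 as the exception, and the median difference was 0.62. At 72 h 12 were higher in mut cells, a share close to the 26.0% of all genes, and the count was 5 with TMM factors, beside 18.7%, 4 by DESeq2, beside 19.0%, 1 without the library WT 72 h 2-2 and 3 without mut 72 h 1-1 or mut 72 h 65-1. Without WT solvent 2-2 or mut solvent 65-1, 1 gene differed in solvent.

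**Figure D2:**
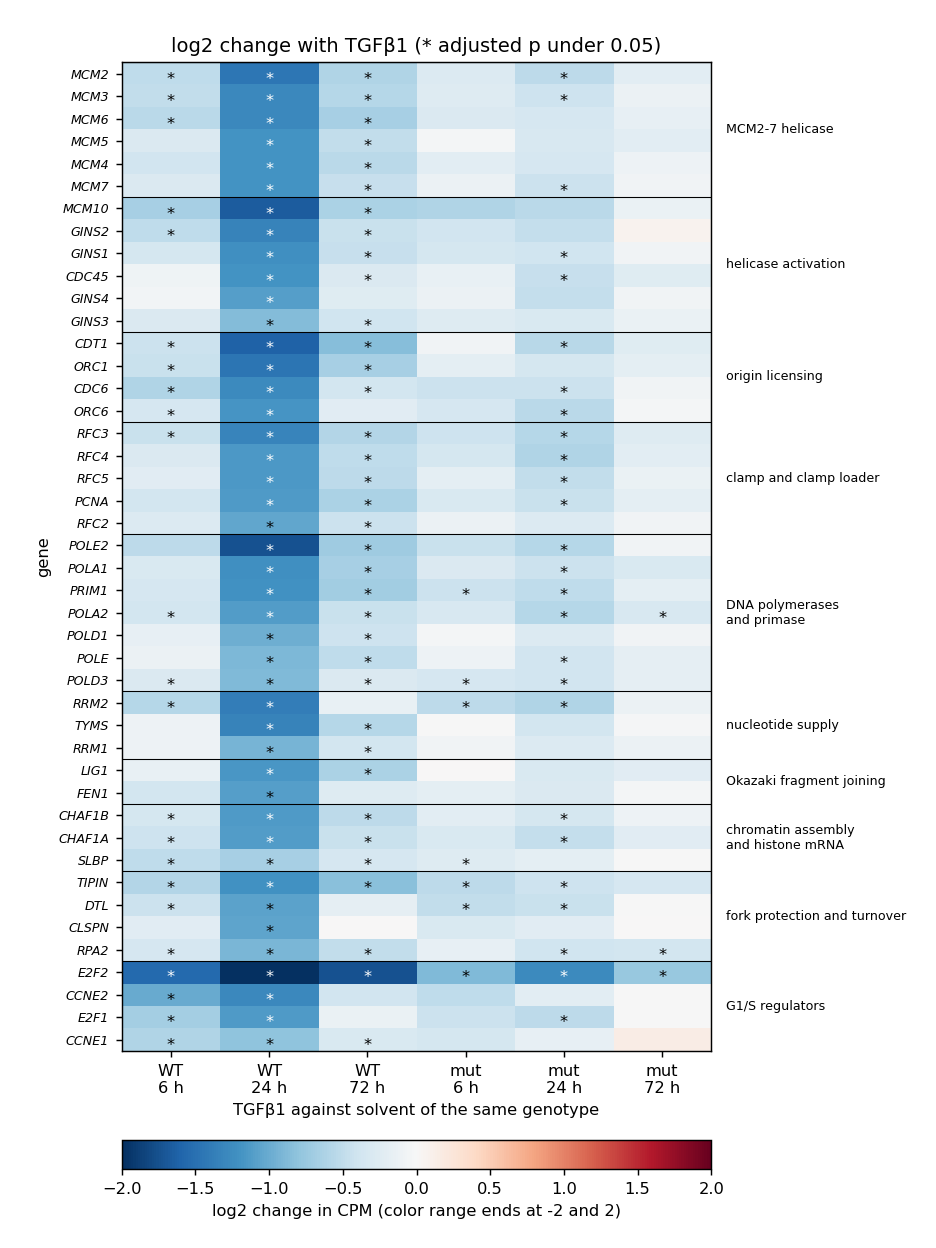
Log2 change of each of the 44 genes (rows, by role) with TGFβ1 against solvent of the same genotype, at 6, 24 and 72 h in WT and in mut cells (columns), with asterisks for an adjusted p under 0.05. The WT 24 h column has an asterisk in all 44 rows and the mut 24 h column in 26, and E2F2 is the 1 gene with an asterisk in all 6 columns.

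Origin licensing, the first step of replication, held some of the largest decreases. All 4 genes, which encode the ORC1 and ORC6 subunits of the origin recognition complex and the loading factors CDC6 and CDT1, fell in WT cells at 6 h and at 24 h. At 24 h the class median was -1.37 in WT and -0.48 in mut cells, and all 4 genes had an interaction. CDT1, which brings the helicase to the origin and is destroyed once S phase has begun, was at 55.3, 48.7, 55.9 and 49.3 CPM in WT solvent in the series order given above. In WT cells it was at 33.4, 34.2, 46.3 and 43.7 CPM after 6 h, 18.9, 13.8, 16.05 and 19.9 CPM after 24 h and 30.1, 21.00, 36.9 and 30.4 CPM after 72 h. Every WT 24 h library was thus below every other WT library, and the 24 h change was -1.62 ± 0.16 on the log2 scale (SE; adjusted p = 2.25e-09). In mut cells CDT1 was at 50.9, 40.9, 55.5 and 46.98 CPM in solvent, 41.1, 49.03, 52.99 and 42.6 CPM after 6 h, 30.6, 35.1, 36.6 and 30.1 CPM after 24 h and 45.6, 33.2, 48.4 and 37.9 CPM after 72 h. All 4 mut libraries at 24 h were above all 4 of WT, and the mut change was -0.55 ± 0.14 (adjusted p = 0.00535). The interaction of CDT1 was 1.07 ± 0.21 at 24 h (adjusted p = 0.00244) and 0.60 ± 0.20 at 72 h (adjusted p = 0.0448). The call at 72 h was lost with TMM factors and by DESeq2.

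ORC1, the largest subunit of the origin complex, was at 31.5, 31.6, 35.5 and 32.2 CPM in WT solvent and 15.4, 9.81, 10.4 and 13.1 CPM at 24 h. In mut cells it was at 26.6, 22.4, 31.3 and 23.2 CPM with solvent and 21.4, 21.1, 22.3 and 16.4 CPM after 24 h of TGFβ1. The WT libraries did not overlap, while the lowest mut solvent library, at 22.4 CPM, was just above the highest mut 24 h library, at 22.3 CPM. At the other times ORC1 had 21.1, 20.1, 28.4 and 27.6 CPM after 6 h and 19.6, 17.99, 23.1 and 22.3 CPM after 72 h in WT cells, and 23.8, 23.3, 24.4 and 18.9 CPM after 6 h and 28.7, 17.7, 30.4 and 16.5 CPM after 72 h in mut cells. The interaction of ORC1 was 1.11 ± 0.25 (adjusted p = 0.00529). CDC6 was at 66.6, 79.8, 81.00 and 80.1 CPM in WT solvent, with 2-1 lower than the other libraries. In WT it was at 46.1, 42.01, 57.1 and 58.1 CPM after 6 h, 39.01, 24.3, 27.6 and 38.3 CPM after 24 h and 59.5, 46.7, 72.3 and 60.7 CPM after 72 h, so that solvent and 72 h overlapped. Its mut levels were 70.4, 73.7, 69.9 and 65.3 CPM in solvent, 53.6, 62.6, 51.8 and 41.8 CPM after 6 h, 53.1, 46.2, 59.7 and 50.1 CPM after 24 h and 82.3, 58.3, 76.9 and 51.9 CPM after 72 h. Mut solvent and 24 h did not overlap, and the interaction was 0.85 ± 0.22 (adjusted p = 0.014). ORC6 was the 1 gene that rose in mut cells from 24 h to 72 h, and in WT cells it regained 80.9% of its 24 h change by 72 h.

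The helicase genes fell together. All 6 subunits MCM2 to MCM7 fell in WT cells at 24 h, with log2 changes from -1.44 (MCM2) to -1.19 (MCM4 and MCM7), all 6 were still below solvent at 72 h, and all 6 rose from 24 h to 72 h. At 6 h 3 of the 6 fell, MCM2, MCM3 and MCM6. MCM4 was at 231, 231, 258 and 249 CPM in WT solvent, 168, 166, 203 and 211 CPM after 6 h, 124, 90.9, 100.3 and 110.2 CPM after 24 h and 169, 133, 196 and 179 CPM after 72 h. In mut cells it was at 210.2, 175, 223 and 164 CPM in solvent, 183, 165, 180.4 and 136 CPM after 6 h, 154, 150.5, 172 and 134 CPM after 24 h and 232, 150.5, 226 and 128 CPM after 72 h. In WT the drop at 24 h separated all libraries, whereas in mut cells the solvent and 24 h libraries overlapped and the change of -0.33 ± 0.15 did not pass (adjusted p = 0.111). MCM4 was lower at 24 h than in solvent in each of the 4 mut series, and with the series as a block the change passed (-0.33 ± 0.09, adjusted p = 0.00463). The mut libraries at 72 h were split by replication, with 232 and 226 CPM in 1-1 and 65-1 and 150.5 and 128 CPM in 1-2 and 65-2. All 6 subunits had an interaction at 24 h, from 0.76 (MCM7) to 0.96 (MCM6), and for MCM4 it was 0.86 ± 0.21 (adjusted p = 0.0114). MCM7 shares exon sequence with MIR93 on the same strand and with AP4M1 on the opposite strand, where reads cannot be told apart in these libraries.

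The genes that turn the loaded helicase on differed more among themselves in timing. At 24 h in WT cells all 6 fell, from -1.67 (MCM10) to -0.87 (GINS3). At 6 h MCM10 and GINS2 fell, whereas CDC45 and GINS4, whose sign turned to 0.02 with TMM factors, had changes of -0.09 ± 0.12 and -0.05 ± 0.17 with adjusted p = 0.684 and 0.884. With TMM factors 1 of these 6 genes was called at 6 h. CDC45, a subunit of the active helicase, was at 30.7, 28.9, 36.2 and 33.8 CPM in WT solvent. After 6 h it was at 28.5, 27.9, 34.5 and 31.4 CPM. It then stood at 15.7, 11.4, 13.5 and 16.1 CPM after 24 h and 24.9, 21.05, 33.5 and 27.6 CPM after 72 h. The solvent and 6 h libraries thus overlapped, and most of the decrease lay between 6 h and 24 h, with a change of -1.20 ± 0.14 from solvent (adjusted p = 3.18e-08). In mut cells CDC45 was at 34.5, 30.9, 33.3 and 30.2 CPM in solvent, 29.6, 31.3, 30.5 and 25.2 CPM after 6 h, 20.8, 23.8, 25.9 and 23.1 CPM after 24 h and 31.9, 28.7, 27.6 and 21.03 CPM after 72 h. Its change at 24 h also passed there (-0.47 ± 0.12, adjusted p = 0.00707), and the interaction was 0.74 ± 0.18 (adjusted p = 0.0121).

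MCM10, a scaffold that helps origins to fire, was at 35.4, 36.1, 45.3 and 40.3 CPM in WT solvent, 22.7, 18.6, 30.9 and 28.7 CPM after 6 h, 17.3, 10.2, 10.2 and 13.2 CPM after 24 h and 26.8, 17.3, 32.6 and 26.4 CPM after 72 h. Its mut levels were 36.9, 29.6, 37.2 and 26.00 CPM in solvent, 22.6, 24.99, 22.3 and 16.03 CPM after 6 h, 21.5, 20.6, 28.04 and 19.6 CPM after 24 h and 39.7, 25.7, 36.9 and 19.00 CPM after 72 h. The mut solvent and 24 h libraries overlapped, and those at 6 h lay below all of solvent. The MCM10 interaction of 1.13 ± 0.31 was among the 4 highest (adjusted p = 0.0218). GINS3, a subunit of the GINS complex, had the smallest WT decrease of this class at 24 h. It was at 24.3, 24.5, 29.9 and 28.00 CPM in WT solvent, 19.1, 19.2, 23.4 and 25.7 CPM after 6 h, 15.3, 12.3, 15.6 and 15.2 CPM after 24 h and 21.9, 16.6, 21.6 and 20.9 CPM after 72 h. In mut cells it was at 27.8, 23.7, 26.96 and 25.6 CPM in solvent, 21.8, 24.4, 21.8 and 19.4 CPM after 6 h, 21.7, 18.4, 25.96 and 19.01 CPM after 24 h and 27.6, 23.2, 25.2 and 19.6 CPM after 72 h. Mut solvent and 24 h overlapped while WT solvent and 24 h did not, with an interaction of 0.56 ± 0.17 (adjusted p = 0.0373). GINS4 fell in WT at 24 h but had no called interaction, and its mut level at 24 h was not called different from WT (difference 0.43 ± 0.20, adjusted p = 0.0971).

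At the fork, the polymerase and clamp genes had class medians of -1.12 for 7 polymerase and primase genes and -1.15 for 5 clamp and clamp loader genes in WT cells at 24 h. All 12 fell, and all 7 of the polymerase class and 4 of 5 of the clamp class had an interaction, with RFC4 the exception. At 6 h POLA2, POLD3 and RFC3 were the genes of these classes that fell. With TMM factors none of the clamp class was called at 6 h. PCNA, the sliding clamp, was at 76.3, 83.4, 78.4 and 91.4 CPM in WT solvent, 56.1, 56.97, 70.9 and 73.6 CPM after 6 h, 36.02, 32.8, 35.95 and 45.1 CPM after 24 h and 48.3, 39.8, 63.3 and 62.6 CPM after 72 h. It was at 78.6, 72.2, 83.2 and 66.7 CPM in mut solvent, 63.9, 60.6, 64.1 and 53.97 CPM after 6 h, 53.4, 58.7, 62.9 and 47.5 CPM after 24 h and 76.4, 51.8, 74.01 and 62.5 CPM after 72 h. The 24 h libraries of the genotypes did not overlap, and the interaction was 0.70 ± 0.19 (adjusted p = 0.0198). PCNA regained 43.9% of its 24 h change by 72 h in WT cells, less than the median of 58.5% over the 44 genes.

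POLE, the catalytic subunit of the leading-strand polymerase, and POLE2, its second subunit, both fell in WT cells, POLE2 with the second largest change of the list. POLE was at 92.5, 89.8, 94.2 and 77.1 CPM in WT solvent, 75.2, 74.5, 92.1 and 84.2 CPM after 6 h, 55.1, 40.97, 47.5 and 47.4 CPM after 24 h and 63.98, 55.4, 71.2 and 58.9 CPM after 72 h. In mut cells POLE was at 87.6, 67.97, 90.2 and 74.96 CPM in solvent, 76.8, 72.6, 79.3 and 67.7 CPM after 6 h, 61.2, 63.6, 64.5 and 56.6 CPM after 24 h and 79.00, 66.8, 78.5 and 57.9 CPM after 72 h. Solvent and 6 h overlapped in both genotypes, solvent and 24 h in neither, and the WT change at 24 h was -0.89 ± 0.11. POLE2 had 10.0, 10.9, 13.4 and 13.6 CPM in WT solvent, 7.10, 6.92, 11.3 and 8.61 CPM after 6 h, 4.19, 3.01, 2.73 and 4.73 CPM after 24 h and 6.92, 5.51, 8.28 and 8.60 CPM after 72 h. In mut cells POLE2 had 10.3, 8.27, 9.47 and 8.63 CPM in solvent, 9.18, 6.29, 7.51 and 4.82 CPM after 6 h, 5.80, 6.96, 6.70 and 5.20 CPM after 24 h and 10.95, 7.16, 11.6 and 6.50 CPM after 72 h. Its 24 h libraries lay below solvent in both genotypes and above those of WT in mut cells, with a WT change of -1.75 ± 0.23. The interactions were 0.52 ± 0.15 for POLE (adjusted p = 0.028) and 1.17 ± 0.31 for POLE2 (adjusted p = 0.0183), and the difference between these 2 genes was not tested. The difference of mut from WT cells in solvent was -0.38 ± 0.18 for POLE2, which did not pass (adjusted p = 0.186). POLD3, an accessory subunit of the lagging-strand polymerase, was at 35.1, 35.3, 37.5 and 37.2 CPM in WT solvent, 28.3, 27.96, 31.9 and 30.7 CPM after 6 h, 21.1, 17.6, 19.03 and 21.1 CPM after 24 h and 31.4, 23.9, 31.7 and 31.7 CPM after 72 h, where 2-2 was lower than the others. In mut cells POLD3 had 35.4, 32.7, 36.4 and 35.8 CPM in solvent, 28.4, 31.1, 27.5 and 24.5 CPM after 6 h, 26.6, 24.7, 30.8 and 25.8 CPM after 24 h and 36.4, 31.2, 33.8 and 23.96 CPM after 72 h. Solvent and 24 h did not overlap in either genotype, and its interaction was 0.50 ± 0.15 (adjusted p = 0.0315).

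**Figure D3:**
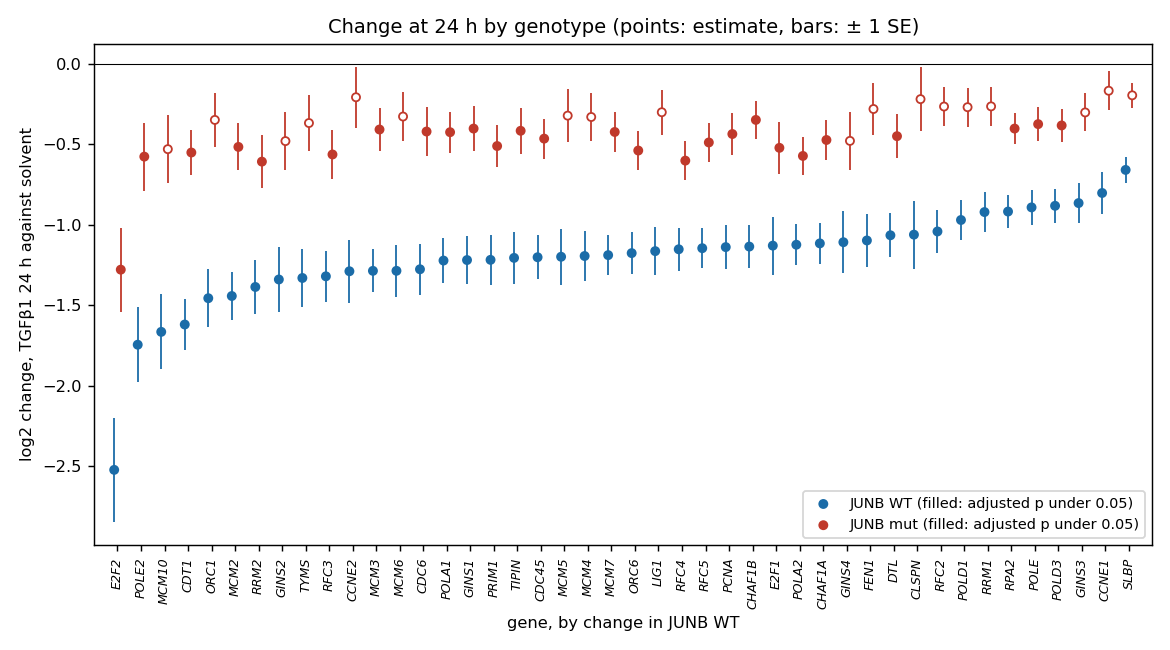
Log2 change at 24 h of TGFβ1 against solvent for each of the 44 genes, in order of the WT change, with WT in blue and mut in red; bars are ± 1 SE and filled points passed an adjusted p of 0.05. The mut point lies above the WT point for all 44 genes, and WT changes run from -2.52 (E2F2) to -0.66 (SLBP).

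Of the genes for nucleotide supply, RRM2 had fallen at 6 h and the others had not. RRM1 and RRM2, the subunits of ribonucleotide reductase, and TYMS, which makes thymidylate, all fell in WT cells at 24 h. RRM1 was at 207, 197, 234 and 251 CPM in WT solvent, 189, 196, 218 and 223 CPM after 6 h, 128, 98.8, 113 and 129 CPM after 24 h and 172, 138, 193 and 191 CPM after 72 h. In mut cells it was at 208, 183, 215 and 179 CPM in solvent, 203, 188, 207 and 157 CPM after 6 h, 154, 180.1, 178 and 142 CPM after 24 h and 209, 179.8, 202 and 139 CPM after 72 h. The WT 24 h libraries stood below all other libraries, whereas mut solvent and 24 h overlapped, and the interaction was 0.66 ± 0.17 (adjusted p = 0.0167). RRM2, the subunit whose level limits the enzyme in S phase, had a rise from 24 h to 72 h of 1.23 ± 0.17 (adjusted p = 0.000227) and a difference from solvent at 72 h of -0.15 ± 0.16 (adjusted p = 0.444), which was 0.01 with TMM factors.

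FEN1 and LIG1, which trim and seal Okazaki fragments, fell in WT cells at 24 h and had an interaction. FEN1 was at 80.9, 86.1, 83.01 and 94.1 CPM in WT solvent, 61.1, 54.5, 72.98 and 81.6 CPM after 6 h, 45.4, 37.00, 31.5 and 49.7 CPM after 24 h and 71.6, 59.5, 74.97 and 82.8 CPM after 72 h. Its mut levels were 73.7, 61.5, 83.3 and 58.3 CPM in solvent, 62.03, 57.7, 67.4 and 53.2 CPM after 6 h, 52.9, 54.7, 66.2 and 52.6 CPM after 24 h and 87.8, 52.6, 81.7 and 51.6 CPM after 72 h. At 24 h in mut cells 65-1 was higher than the others and reached into the solvent range. The FEN1 interaction was 0.82 ± 0.23 (adjusted p = 0.0243). A short stretch of its exons overlaps FADS2 on the same strand, where reads of the 2 genes cannot be told apart.

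Among the genes of chromatin assembly and histone mRNA, CHAF1A and CHAF1B, subunits of the factor that loads histones behind the fork, fell with changes of -1.12 ± 0.13 and -1.14 ± 0.13 in WT cells at 24 h. SLBP, which binds the stem-loop at the end of histone mRNAs, had the smallest WT decrease of the 44 genes and most of it was present at 6 h. It was at 80.4, 86.6, 85.2 and 86.2 CPM in WT solvent, 57.7, 52.7, 64.2 and 63.4 CPM after 6 h, 58.99, 52.4, 50.2 and 52.99 CPM after 24 h and 66.1, 61.1, 75.9 and 66.1 CPM after 72 h. The 6 h and 24 h libraries overlapped and both lay below solvent, with changes of -0.51 ± 0.08 and -0.66 ± 0.08 (adjusted p = 4.73e-05 and 9.13e-08). In mut cells SLBP was at 79.9, 79.8, 83.1 and 74.8 CPM in solvent, 63.3, 75.4, 67.5 and 59.9 CPM after 6 h, 68.7, 63.3, 72.5 and 72.7 CPM after 24 h and 87.1, 68.1, 83.05 and 79.3 CPM after 72 h. The mut change was called at 6 h (-0.26 ± 0.08, adjusted p = 0.0406) and not at 24 h (adjusted p = 0.0676, and 0.0466 with the series as a block), and the interaction at 24 h was 0.46 ± 0.11 (adjusted p = 0.00974).

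The genes of fork protection and turnover all fell in WT cells at 24 h. They were RPA2, a subunit of the protein that coats single-stranded DNA, TIPIN and CLSPN, which keep the fork stable and pass on checkpoint signals, and DTL, which directs the destruction of CDT1 and other proteins bound to PCNA. DTL was at 123, 124, 139 and 136 CPM in WT solvent, 89.4, 85.7, 99.5 and 115 CPM after 6 h, 76.3, 51.8, 54.03 and 70.4 CPM after 24 h and 117, 94.02, 129.5 and 124 CPM after 72 h, so that 83.7% of its change was regained. Its levels in mut cells were 121, 118, 116 and 111 CPM in solvent, 83.5, 98.1, 84.3 and 69.5 CPM after 6 h, 85.7, 78.5, 99.9 and 78.4 CPM after 24 h and 134, 122, 131 and 83.2 CPM after 72 h. The mut solvent and 24 h libraries did not overlap. DTL passed in mut cells at 24 h (-0.45 ± 0.14, adjusted p = 0.0154), and its interaction of 0.62 ± 0.19 (adjusted p = 0.0406) was lost with TMM factors, by DESeq2 and without the series 1-2. RPA2 was at 28.2, 31.2, 30.2 and 32.3 CPM in WT solvent, 23.2, 23.5, 26.6 and 23.8 CPM after 6 h, 16.2, 13.9, 17.5 and 16.7 CPM after 24 h and 22.4, 18.7, 24.9 and 21.1 CPM after 72 h. It was at 32.9, 29.2, 34.4 and 28.1 CPM in mut solvent, 31.8, 26.96, 28.2 and 25.00 CPM after 6 h, 23.6, 25.1, 25.4 and 20.2 CPM after 24 h and 27.5, 21.1, 25.4 and 22.9 CPM after 72 h. In each genotype all libraries at 24 h and at 72 h were below all solvent libraries. RPA2 was 1 of the 3 genes still below solvent in mut cells at 72 h (-0.37 ± 0.09, adjusted p = 0.00467). CLSPN at 72 h had a difference from solvent of 0.01 ± 0.19 in WT cells (adjusted p = 0.962), whereas TIPIN stayed below it with a difference of -0.84 ± 0.15 (adjusted p = 3.78e-05).

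All 4 regulators of the G1/S transition had fallen by 6 h in WT cells. E2F1 and E2F2, the activating E2F factors of the list, and CCNE1 and CCNE2, the E cyclins, had a class median of -0.85 at 6 h and -1.21 at 24 h. Their 6 h change was a median of 68.6% of their 24 h change, against 31.8% over all 44 genes. E2F2 had the largest decrease of the list. It was at 9.41, 10.8, 11.98 and 7.80 CPM in WT solvent, 3.61, 2.32, 4.65 and 3.53 CPM after 6 h, 2.04, 1.01, 2.18 and 1.81 CPM after 24 h and 3.22, 1.58, 4.59 and 3.20 CPM after 72 h. No treated WT library reached the solvent range, and the changes were -1.55 ± 0.26, -2.52 ± 0.32 and -1.75 ± 0.27 (adjusted p = 0.000122, 2.21e-07 and 5.33e-06). In mut cells E2F2 was at 9.84, 9.46, 9.30 and 7.22 CPM in solvent, 4.86, 8.22, 4.53 and 3.23 CPM after 6 h, 4.42, 3.61, 3.57 and 3.07 CPM after 24 h and 7.06, 4.98, 6.03 and 3.44 CPM after 72 h. It fell there at all 3 times, with changes of -0.88 ± 0.23, -1.28 ± 0.26 and -0.76 ± 0.23. Its interaction at 24 h was the largest of the list at 1.24 ± 0.42 but missed the threshold (adjusted p = 0.0556), and it passed with the series as a block (1.18), by DESeq2 (1.13) and with only genes of a mean count of at least 50 (1.25).

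CCNE2 was at 19.5, 19.1, 23.7 and 25.5 CPM in WT solvent, 11.4, 10.97, 8.52 and 12.6 CPM after 6 h, 10.9, 7.65, 7.39 and 10.4 CPM after 24 h and 15.7, 13.9, 18.1 and 19.2 CPM after 72 h. The 6 h and 24 h libraries overlapped, so that 78.7% of the change was present at 6 h, with a range of 60.6% to 93.3% over the 4 series. In mut cells it was at 15.9, 15.7, 17.9 and 12.4 CPM in solvent, 12.3, 11.6, 10.8 and 9.004 CPM after 6 h, 13.1, 11.6, 17.4 and 11.9 CPM after 24 h and 20.8, 10.98, 20.6 and 11.6 CPM after 72 h. Solvent and treated mut libraries overlapped at 24 h and at 72 h, neither change passed, with or without the series as a block, and the interaction at 24 h was 1.08 ± 0.27 (adjusted p = 0.0127). All 4 mut solvent libraries were below all 4 WT solvent libraries, a difference of -0.51 ± 0.17 with adjusted p = 0.0538, so the mut libraries may have started from a lower level. Exons of CCNE2 overlap those of INTS8 on the opposite strand. CCNE1 was at 22.6, 21.6, 22.3 and 23.00 CPM in WT solvent, 14.1, 12.2, 18.3 and 14.98 CPM after 6 h, 15.6, 11.6, 12.04 and 12.6 CPM after 24 h and 16.99, 16.02, 19.8 and 19.9 CPM after 72 h, again with 6 h and 24 h overlapping. Its mut levels were 20.5, 21.97, 22.7 and 17.9 CPM in solvent, 14.3, 19.97, 16.8 and 14.3 CPM after 6 h, 17.96, 15.5, 22.5 and 18.4 CPM after 24 h and 24.3, 19.5, 25.7 and 23.1 CPM after 72 h. Mut solvent and 24 h overlapped, and its interaction was 0.63 ± 0.18 (adjusted p = 0.0235). E2F1 fell to a ratio of 0.623 of solvent at 6 h and 0.457 at 24 h in WT cells and regained 88.5% by 72 h, when its difference from solvent was -0.13, or 0.03 with TMM factors.

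**Figure D4:**
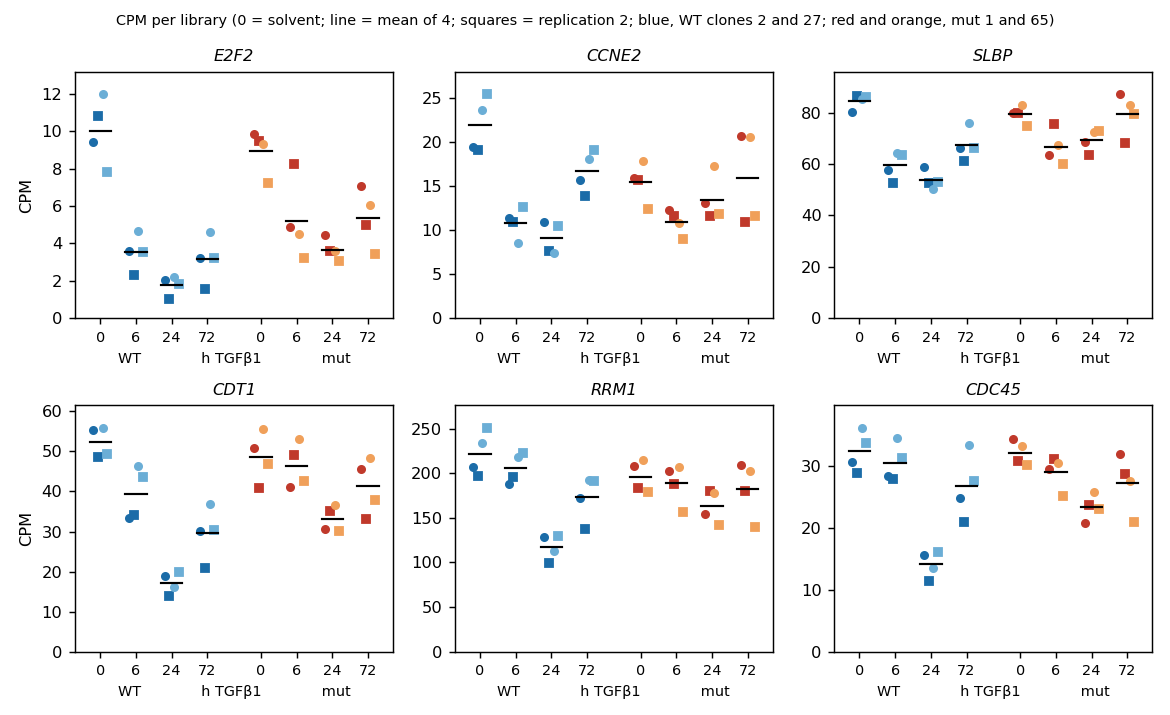
CPM of 6 genes in each library, by genotype and hours with TGFβ1 (0 is solvent); circles are replication 1, squares replication 2, colors mark the clones and lines the means of 4 libraries. E2F2, CCNE2 and SLBP were low at 6 h in WT cells, while RRM1 and CDC45 at 6 h overlapped solvent and were low at 24 h.

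The genes differed in when they fell. In WT cells the 6 h change was at least 50% of the 24 h change in 5 of the 44 genes, CCNE2 (78.7%), SLBP (77.7%), CCNE1 (75.6%), E2F2 (61.6%) and E2F1 (60.4%). It was under 20% in 8 genes, with GINS4 at 4.79%, CDC45 at 7.44% and TYMS at 7.64% as the lowest. These shares varied between series, for CCNE1 from 31.97% to 127% and for CDC45 from 3.94% to 11.4%. By 72 h, 33 genes had regained 50% or more of the 24 h change, and CLSPN (101%), RRM2 (89.0%), E2F1 (88.5%), DTL (83.7%), ORC6 (80.9%), GINS4 (78.2%), FEN1 (76.6%) and CDC45 (75.7%) had regained at least 75%. TIPIN (30.2%) and E2F2 (30.8%) had regained least, and neither rose from 24 h to 72 h by the test (adjusted p = 0.223 and 0.217). The shares use the same solvent and 24 h libraries and are descriptions.

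**Figure D5:**
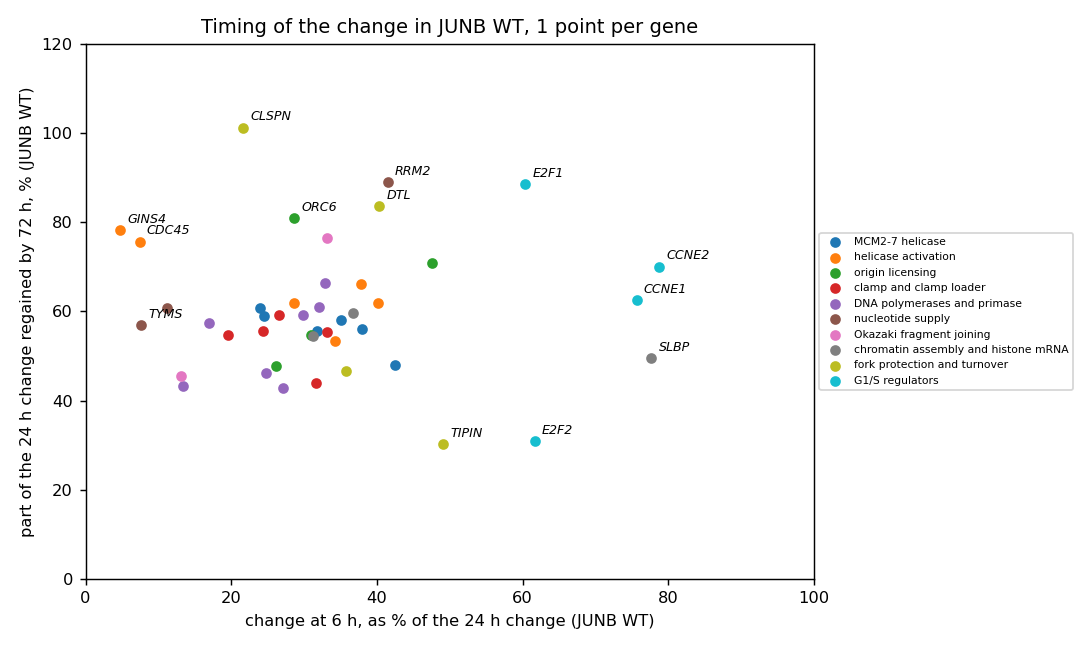
For each of the 44 genes in JUNB WT cells, the change at 6 h as a percentage of the change at 24 h (horizontal axis) against the percentage of the 24 h change regained by 72 h (vertical axis), with colors for roles. CCNE2, CCNE1, SLBP, E2F2 and E2F1 lie right of 50%, and CLSPN, at 101%, is the highest.

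The gap between the genotypes was smaller at 72 h than at 24 h, but this did not pass the test. The difference between genotypes in the change from 24 h to 72 h, a comparison added after the data were seen, had a median of -0.43 and was negative in all 44 genes, but none passed in limma-voom, edgeR or DESeq2, beside 0.00673% of all genes. With an unadjusted p under 0.05 there were 22 of the 44, beside 6.5% of all genes, and with the series as a block 4 passed, beside 0.336%. At 72 h the mut libraries were split by replication, with mean log2 CPM of 5.46 and 5.45 in 1-1 and 65-1 and of 5.10 and 4.91 in 1-2 and 65-2. By limma-voom 12 genes were higher in mut cells at 72 h, a share close to the 26.0% of all genes. With TMM factors there were 5, beside 18.7%. The 12 included PRIM1 (0.64 ± 0.14, adjusted p = 0.000671), the primase subunit that makes the RNA primers. E2F2 (0.82 ± 0.29, adjusted p = 0.0256) and CDT1 (0.48 ± 0.14, adjusted p = 0.00876) were also among them.

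2 related lists are given for comparison. Of 45 other genes of replication and S phase, 14 fell and 1 rose in WT cells at 6 h and 41 fell and 1 rose at 24 h, with medians of -0.26 and -0.84. Of 37 genes of G2 phase and mitosis, 1 fell at 6 h and all 37 at 24 h, with medians of -0.16 and -0.97. Beside these, 11.9% of all genes fell at 6 h and 38.0% at 24 h, with medians of -0.08 and -0.18. Of the 14865 genes tested, 762 rose at 6 h and 2098 at 24 h. An interaction at 24 h was called in 20 of the 45 and in 8 of the 37, with a median of 0.51 in each list. Here it was called in 39 of the 44, with a median of 0.78. Of all genes 7.72% had a called positive interaction, and the median of all genes was 0.08. The differences between the lists were not tested, and all lists were chosen with results of these data known.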

How the data were processed

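RNA was sequenced from 32 libraries of MCF10A clones as TruSeq RNA v2 paired-end libraries, which do not mark strand. The authors trimmed reads with Trimmomatic, aligned them to Ensembl GRCh38 with STAR and deposited its raw counts per gene; versions and the strand setting are not given in the sources used here. Genes were named by GENCODE release 44, which matched 17763 of the 17788 genes.

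Counts were filtered with edgeR's filterByExpr (minimum count 10, minimum total 15), leaving 14865 genes, and fitted with limma-voom (R 4.3.3, limma 3.58.1, edgeR 4.0.16) with 1 coefficient per group over all 32 libraries and library-size scaling. P-values were two-sided and Benjamini-Hochberg adjusted over all genes tested within each of 16 comparisons. CPM was computed as the count per 1e6 counts of the library, and log2 CPM with a pseudocount of 0.5. Alternatives were TMM factors, edgeR's quasi-likelihood test, DESeq2 1.42.0, no filter, a mean count of at least 50, the series as a block, and leaving out series or libraries. The depth ran from 39702412 to 54651906 counts, and how far it limits precision for low genes such as E2F2 was not tested.

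The members and lists were chosen with earlier results of these data known. Genes described one by one were, by a fixed rule, the member of each role with the highest mean CPM, the 4 with the highest and the 4 with the lowest WT change at 24 h, the same for the 24 h interaction, and the 2 that differed most between genotypes in solvent; those named in counts beside them, such as ORC6, were picked after their values were seen. The 24 h to 72 h interaction and the 2 promoters without a match were added after the data were seen. The series pairs libraries by cell clone and replication: the deviations of a library from its group's mean correlated within a series (on average 0.303, over 0.1 in 46 of 48 pairs, lowest 0.0283). Libraries of a group differed beyond counting noise (chi-square per degree of freedom at least 11.6), so none was counted as a duplicate. Exons of 13 members overlap those of other genes. UHRF1 was not analysed here. Some results that the rules would name are not reported here.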

Additional observations from a re-analysis of the deposited data

Results flagged for a closer look

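In 160 groups of 4 libraries, 5 values lay far from the other 3 by Dixon's criterion. Chance alone flags about 1 in 20 groups, so these 5 are not more than chance gives. CDC6 in WT solvent 2-1 was at 66.6 CPM, against 79.8 to 81.0 CPM in the others. FEN1 in mut 24 h 65-1 was at 66.2 CPM, against 52.6 to 54.7 CPM. POLD3 in WT 72 h 2-2 was at 23.9 CPM, against 31.4 to 31.7 CPM, and GINS3 in WT 24 h 2-2 was at 12.3 CPM, against 15.2 to 15.6 CPM. The mean log2 CPM of all members in mut 6 h 65-2 was 4.87, against 5.13 to 5.18.

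Of the 19 genes described one by one, 18 had a 24 h change that differed between JUNB WT and mut cells by the interaction term of limma-voom. Beside these, 7.72% of all genes had a positive interaction. Some of the 19 were chosen by the size of this interaction, so the count describes chosen genes. E2F2, the gene not called, had the largest difference (1.24). Among the 18, the largest differences on the log2 scale were in POLE2 (1.17, adjusted p = 0.0183), MCM10 (1.13, 0.0218), ORC1 (1.11, 0.00529), CCNE2 (1.08, 0.0127) and CDT1 (1.07, 0.00244). Intermediate ones were in MCM4 (0.86, 0.0114), CDC6 (0.85, 0.0140), FEN1 (0.82, 0.0243), CDC45 (0.74, 0.0121), PCNA (0.70, 0.0198), RRM1 (0.66, 0.0167), CCNE1 (0.63, 0.0235) and DTL (0.62, 0.0406). GINS3 (0.56, 0.0373), POLE (0.52, 0.0280), RPA2 (0.52, 0.0198), POLD3 (0.50, 0.0315) and SLBP (0.46, 0.00974) had the smallest. CDT1 also differed at 72 h (0.60, 0.0448).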

How the results depend on the processing

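The count of 44 members that fell in WT cells at 24 h was 44 under each alternative run. No called change of a member turned its sign under any alternative. Of changes that were not called, 30 over all comparisons did so with TMM factors, 13 of them in mut cells at 72 h, where 15 also did by DESeq2. Other counts depended on the setting. Shares of all genes are not given for every setting, so a change in a count cannot always be told from a general change. With TMM factors they were 12 for WT at 6 h, 23 for WT at 72 h, 1 for mut at 6 h, 15 for mut at 24 h, 5 for mut against WT at 72 h, 24 for the interaction at 24 h and 0 for that at 72 h, and the WT median at 24 h was -1.005. By DESeq2 they were, in that order, 12, 19, 2, 16 and 4, then 0 for the interaction at 72 h, 1 for mut at 72 h and 2 for mut from 24 h to 72 h. By edgeR's quasi-likelihood test 3 fell in mut cells at 6 h and 1 at 72 h. The interaction at 72 h had 0 calls with no filter and 2 with a mean count of at least 50. Without the series 27-2 the WT count at 6 h was 15. Without the series 1-2 the interaction counts were 18 at 24 h and 3 at 72 h, mut at 72 h had 1 and mut from 24 h to 72 h had 0. With TTTCCCGC as the one E2F sequence, 26.3% of members and 2.88% of genes had a match. The causes were not tested.

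With the series as a replicate block, 25 fell in mut cells at 6 h, 41 at 24 h and 7 at 72 h, 14 rose from 24 h to 72 h, and the interactions had 22 at 72 h and 4 between 24 h and 72 h. The block lost no call. Among the genes described one by one it gained FEN1, GINS3, MCM4, PCNA and POLE2 in WT at 6 h, CCNE2 and FEN1 in WT at 72 h, E2F2 from 24 h to 72 h in WT, CCNE1, CCNE2, CDC6, GINS3, MCM10, PCNA and POLE2 in mut at 6 h, FEN1, GINS3, MCM4, MCM10, ORC1, RRM1 and SLBP in mut at 24 h, CDC45 in mut at 72 h, DTL and POLE2 from 24 h to 72 h in mut, E2F2's interaction at 24 h, and interactions of CCNE1, E2F2, MCM4, ORC1, PCNA, POLE, POLE2 and SLBP at 72 h and of CDC45 and RRM1 between 24 h and 72 h. The series could not serve as a block for mut against WT because each series lies within 1 genotype. A block by replication number, which both genotypes share, was not run.

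With each library left out in turn, counts were 7 to 26 (WT 6 h), 28 to 37 (WT 72 h), 29 to 42 (WT 24 h to 72 h), 0 to 12, 18 to 28 and 1 to 4 (mut 6, 24 and 72 h), 0 to 5 (mut 24 h to 72 h), 0 to 1, 36 to 43 and 1 to 15 (mut against WT in solvent, at 24 h and at 72 h), and 22 to 41 and 0 to 9 (interactions at 24 h and 72 h). E2F2, the member with the lowest mean level, was at 1.01 CPM in its lowest library, and how far depth adds to its spread was not tested.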

Other observations

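Among 45 other genes of replication and S phase, genes with the lowest and the highest WT change at 24 h were named by rule. DSCC1, part of an alternative clamp loader, had a change of -1.50 ± 0.17 (SE; limma-voom adjusted p = 3.32e-08) and the repressor E2F8 one of -1.39 ± 0.34 (adjusted p = 0.0011). DSCC1 was at 23.6 ± 3.02 CPM (SD, n = 4) in WT solvent and 8.43 ± 1.87 CPM at 24 h, and at 21.2 ± 1.88 and 14.8 ± 2.21 CPM in mut cells.

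At the other end, POLD4, the smallest subunit of DNA polymerase delta, rose in both genotypes at 24 h, in contrast to POLD1 and POLD3 of the same enzyme, which fell in WT cells. POLD4 was at 23.1 ± 3.13 CPM in WT solvent and 40.5 ± 2.23 CPM at 24 h (0.81 ± 0.12, adjusted p = 1.47e-06), and at 21.2 ± 1.30 and 33.0 ± 3.36 CPM in mut cells (0.64 ± 0.12, adjusted p = 0.000374). E2F3, an activating E2F factor, had a WT change of -0.03 ± 0.08 at 24 h (adjusted p = 0.729). The repressor E2F7 had 0.28 ± 0.14 (adjusted p = 0.0876). It was lower in mut than in WT cells in solvent, at 41.4 ± 4.12 against 58.9 ± 7.07 CPM (-0.51 ± 0.14, adjusted p = 0.0185), and at 24 h, at 39.3 ± 7.18 against 72.5 ± 14.2 CPM (-0.88 ± 0.14). Its interaction at 24 h was -0.37 ± 0.20 (adjusted p = 0.277).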
